A study of Mus musculus with 8 samples.

Results

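The miRNAs described here are those named miR-5097 to miR-5136 in miRBase, with any suffix or arm. They were taken from the probe annotation of a mouse miRNA array by this number. The array held 38 of them among its 1881 mouse miRNAs, spread over 33 of the 40 numbers in the range. Of these 38, 14 were called detected in mouse serum on every array, 11 on some arrays and 13 on none. One of the 38, miR-5128, passed the test for a higher level in irradiated mice and none passed it for a lower level. The call of miR-5128 was close to its threshold.

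The study compared serum miRNAs of irradiated and non-irradiated male C57BL/6NJcl mice to look for markers of a high radiation dose. There were 4 sera from mice given 7 Gy of X-rays at 8 weeks of age and 4 sera from mice given 0 Gy. The irradiated sera were taken at 72 h, while the time of the non-irradiated sera on these arrays is not stated. Each serum gave 30 ng of RNA for 1 array, and all 8 arrays lay on 1 slide. The sera are numbered as separate samples, and the study counts its mice per group in the same number, so p-values measure the spread between these sera.

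A miRNA is a short RNA cut from a hairpin precursor by the enzymes Drosha and Dicer and loaded into an Argonaute protein, where its seed, the bases from position 2 to position 8, pairs with target mRNAs. miRNAs circulate in serum inside vesicles and bound to protein, released by blood cells and by tissues, and red blood cells are rich in miR-451a and miR-144. miRBase numbers follow the order of submission, so that high numbers mostly come from deep sequencing of small RNAs. Such entries are often seen at few reads, and some overlap other RNAs or repeats, so that their standing as processed miRNAs is in many cases less settled than that of the early families. Serum RNA is a mixture of sources, and fewer releasing cells and less RNA released per cell cannot be told apart in it.

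Mature sequences for 32 of the 38 members came from RefSeq on GRCm38.p6, and those of 9 of the 11 members that could be tested are shown with miR-5132-5p, which was added after its values were seen. They are written 5′ to 3′ with the seed in capitals, because no pair of the 32 shares one and because their base composition differs widely.
miR-5100: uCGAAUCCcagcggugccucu
miR-5110: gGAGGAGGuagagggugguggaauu
miR-5113: aCAGAGGAggagagagauccugu
miR-5118: aAGGUUAGgccagccuggu
miR-5119: cAUCUCAUccuggggcugg
miR-5126: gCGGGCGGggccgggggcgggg
miR-5128: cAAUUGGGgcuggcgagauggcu
miR-5130: cUGGAGCGcgcgggcgaggcaggc
miR-5131: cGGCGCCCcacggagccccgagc
miR-5132-5p: gCGUGGGGugguggacucagg

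The 32 sequences held 32 distinct seeds, so these members are a run of numbers and not a family with a common seed. Likeness outside the seed did occur, since miR-5124a and miR-5124b, neither of them tested, shared a run of 12 bases. Of the 9 tested members with a sequence, miR-5110 alone had the seed of another of the 1608 array miRNAs with one, miR-7081-5p, which did not pass the filter for testing. With 1 mismatch allowed, the longest stretch of these 9 in common with another miRNA was in the 3′ part of miR-5128. That stretch is set beside the matching stretch of miR-3473e and miR-3473b, over 17 bases with 1 mismatch.
miR-5128: gggcuggcgagauggcu
miR-3473e and miR-3473b: gggcuggagagauggcu
The longest run shared by them without a mismatch was 9 bases, while miR-5118 with miR-1195 and miR-5119 with miR-7686-5p shared 11. The pair miR-3473e and miR-3473b, and these last pairs, were singled out after the values were seen.

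In GRCm38.p6, miR-5126 lies at chr1:84695890-84695911 on the plus strand within the span of Dner, which encodes a neuronal transmembrane receptor with EGF-like repeats. miR-5128 lies at chr2:37688212-37688234 on the minus strand within the span of Strbp, which encodes a spermatid RNA-binding protein. miR-5100 lies at chr11:60728698-60728718 on the plus strand within the span of Mief2, which encodes a protein of mitochondrial fission. The sites of the other tested members are chr11:85760675-85760699 (minus) for miR-5110 in Bcas3, chr15:80940049-80940071 (plus) for miR-5113 in Tnrc6b, chr16:55494770-55494788 (plus) for miR-5118 in the non-coding gene Gm45968, and chr11:98262638-98262656 (plus) for miR-5119 in Cdk12. miR-5130 lies at chr14:102982608-102982631 (minus) in Kctd12 and miR-5131 at chr14:45657972-45657994 (minus) in Ddhd1. Tnrc6b encodes a partner of Argonaute in miRNA silencing, and Cdk12 encodes a kinase of RNA polymerase II. In all, 29 of the 32 members with a sequence lay within the span of another RefSeq gene, and no such share was counted over all array miRNAs. Whether a site is exonic or intronic, or on the same strand as the gene, was not determined here. The mature sequence came from the 5p side of the hairpin in 12 members and from the 3p side in 19.

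The 8 arrays differed in how well labelling had worked. The labelling spike-in, a control RNA added before the dye reaction, read 2.73 to 3.68 (log10 signal) on the 0 Gy arrays and 1.95 to 3.35 on the 7 Gy arrays, and it was outside Agilent's accepted range on 7 Gy replicates 1, 3 and 4. The summed signal of all mouse miRNAs was 113386 to 435275 units at 0 Gy and 32387 to 242891 at 7 Gy, and 531 to 603 miRNAs were detected at 0 Gy against 378 to 687 at 7 Gy. The 0 Gy arrays filled the first 2 columns of the slide and the 7 Gy arrays the others, so that column and dose cannot be told apart. No spot was saturated. The part of labelling in the differences below was not tested, except through the alternatives given beside them.

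Detection calls of the 2 doses overlapped. On 0 Gy replicates 1 to 4 there were 20, 20, 16 and 17 of the 38 members detected, and 7 Gy replicates 1 to 4 had 14, 22, 16 and 17. The means were 18.2 ± 2.06 and 17.2 ± 3.40 (SD, n = 4 each), with the lowest and the highest count both at 7 Gy. Members were detected on all 8 arrays more often than the array as a whole, at 36.8% against 16.5% of all mouse miRNAs, and on no array less often, at 34.2% against 57.3%. This was not particular to them, since the range miR-8090 to miR-8120 had 48.4% of its 31 miRNAs on all arrays and 41.9% on none. No test was made of these differences. The members seen on only some arrays were miR-5098, miR-5099, miR-5104, miR-5121, miR-5122, miR-5124a, miR-5127, miR-5132-5p, miR-5133, miR-5135 and miR-5136. Of these 11, 8 were seen on 7 Gy replicate 2, the array with the most miRNAs detected in all, and 0 on 7 Gy replicate 1. There were 6 seen on 1 array alone, 3 of them on 7 Gy replicate 2. No member was detected on every 0 Gy array and missed on every 7 Gy array.

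**Figure D1:**
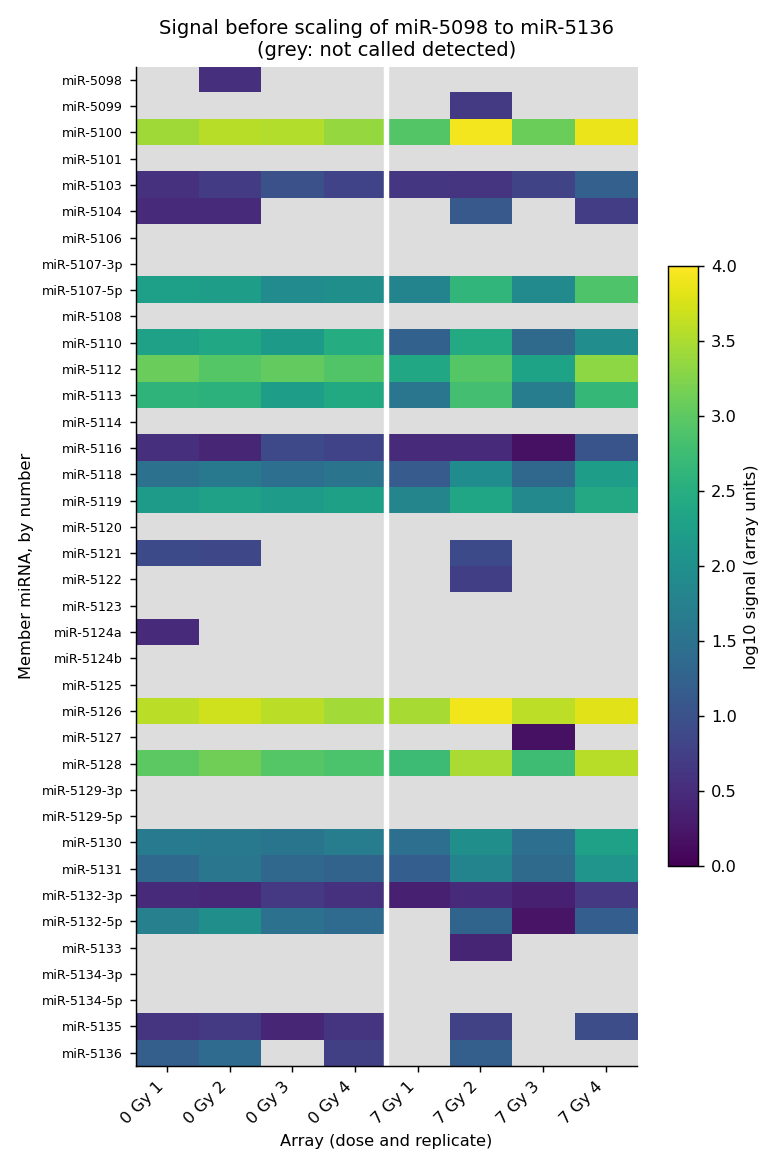
Deposited signal of the 38 members on each of the 8 arrays before any scaling (rows, members by number; columns, arrays; colour, log10 of the signal in array units; grey, not called detected). The 14 members detected on all arrays form unbroken rows, with miR-5100, miR-5126 and miR-5128 among the brightest, and the 13 detected on none are grey throughout.

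Undetected on every array were miR-5101, miR-5106, miR-5107-3p, miR-5108, miR-5114, miR-5120, miR-5123, miR-5124b, miR-5125, miR-5129-3p, miR-5129-5p, miR-5134-3p and miR-5134-5p. Both arms of miR-5129 and of miR-5134 are on this list. The arms of miR-5107 differed, with miR-5107-5p detected on all 8 arrays and miR-5107-3p on none, whereas miR-5132-3p was seen on 8 arrays and miR-5132-5p on 7. A call of not detected says only that the spots were not above the error of the background on that array.

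For the comparison of doses the arrays were brought to one value of their 90th percentile over mouse miRNAs, and signals under 100 units were raised to this floor before the log2. A test was made of miRNAs detected on at least 3 arrays and above the floor on at least 1, which left 208, with 11 members among them. miR-5103, miR-5116 and miR-5132-3p were detected on all 8 arrays but stayed between 1.13 and 30.3 scaled units and were not tested. Of the 11 tested, miR-5107-5p, miR-5118, miR-5130 and miR-5131 passed the floor through 7 Gy arrays alone and could differ only upwards, so that counts over the 11 are given as a description. At an adjusted p under 0.05 (limma with Benjamini-Hochberg adjustment over the 208), 1 member was higher at 7 Gy, beside 1.92% of all tested miRNAs, and 0 were lower, beside 1.92%. At an unadjusted p under 0.05 by limma, 5 members were higher, beside 22.1%, and 0 were lower, beside 7.69%. The difference was above 0 in 10 of the 11, beside 59.6%, with a median log2 difference of 0.43 against 0.17 over all 208. The 2 groups did not overlap in 2 members, both higher at 7 Gy, beside 6.73% of all tested, and 0 were lower without overlap, beside 5.29%.

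miR-5128 was the member that passed the test. Its scaled signal was 379, 607, 945 and 676 on 0 Gy replicates 1 to 4, against 2404, 1183, 2670 and 2805 on 7 Gy replicates 1 to 4. Every 7 Gy array lay above every 0 Gy array, with 7 Gy replicate 2 nearest to the controls. The log2 difference was 1.80 ± 0.37 (SE, n = 4 per group; 95% interval 0.92 to 2.67), a 3.47-fold higher mean, with an adjusted p of 0.0474 by limma. The exact permutation test, two-sided over 4 against 4 arrays, gave p = 0.0286, the smallest it can give here. Leaving out any 1 array other than 7 Gy replicate 2 took the adjusted p above 0.05, with log2 differences from 1.56 to 2.08 over the 8 omissions. Before scaling the signal was 971, 1343, 888 and 727 in the controls and 555, 3123, 577 and 3712 after irradiation, and the unscaled groups overlapped.

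The 2 probes of miR-5128 gave log2 differences of 1.76 and 2.01, and the groups overlapped on the first and not on the second. One of them was 9.93 times as bright as the other. miR-3473e, which holds the like stretch, had scaled signals of 35.7, 56.1, 87.8 and 59.3 at 0 Gy against 248, 143, 279 and 282 at 7 Gy, with no overlap and a log2 difference of 2.01 before the floor. All 4 of its control values lay under the floor, so that its fitted difference of 1.20, with an adjusted p of 0.0474 by limma, could only be upwards and rests on controls with no spread. The ratio of miR-5128 to miR-3473e within an array was 10.6, 10.8, 10.8 and 11.4 at 0 Gy against 9.70, 8.28, 9.58 and 9.95 at 7 Gy. This ratio kept within a span of 1.38-fold over 8 arrays whose scaled signals of miR-5128 ran from 379 to 2805. The ratio of miR-5128 to miR-3473b, which has the same 17 bases as miR-3473e there, spanned 4.16-fold, from 0.170 to 0.353 at 0 Gy and from 0.409 to 0.706 at 7 Gy. Whether RNA of one of these miRNAs binds the probes of another was not tested.

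miR-5107-5p was the other tested member whose groups did not overlap, and it was tested only because of its 7 Gy values. Its scaled signal before the floor was 70.4, 75.2, 89.1 and 92.1 at 0 Gy against 277, 161, 372 and 598 at 7 Gy. All 4 control values were under 100 and were raised to it, which left them with no spread and a difference that could only be upwards. The fitted value of 1.66, with an adjusted p of 0.0525 by limma, is therefore given as a description. Without the floor the log2 difference was 1.96, and the 2 probes gave 2.13 and 2.19 in spot signal. The unscaled groups overlapped, at 83.7 to 181 units for 0 Gy and 63.8 to 791 for 7 Gy.

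**Figure D2:**
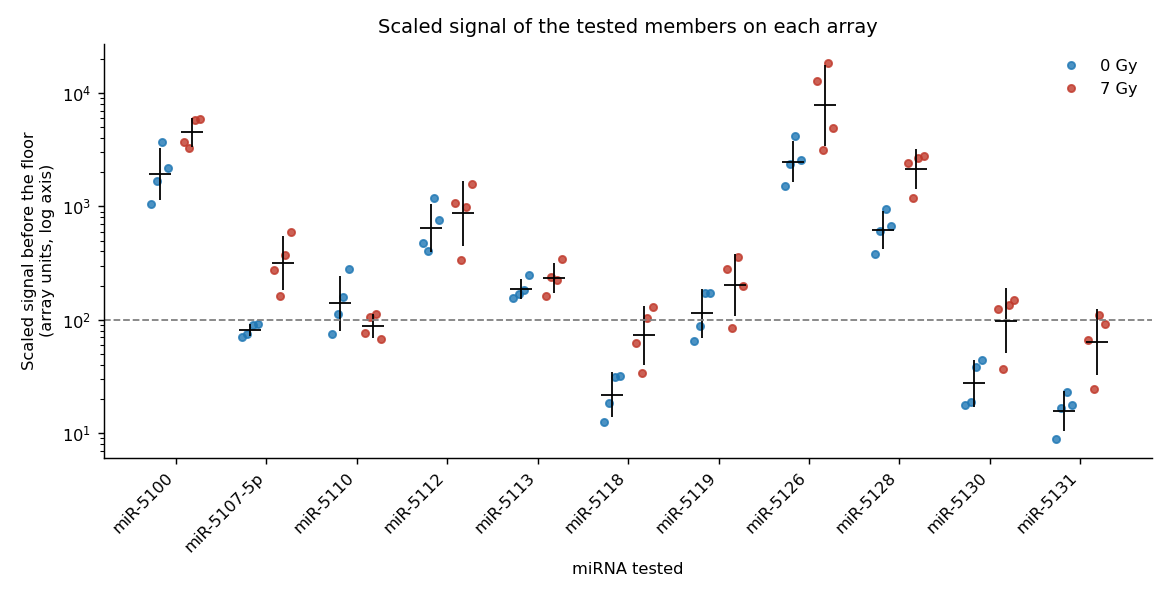
Scaled signal of the 11 tested members before the floor (log axis, array units; points, 1 array each; horizontal bars, means of the log2 signal; vertical bars, SD, n = 4 per group; dashed line, the floor of 100). The groups stand apart for miR-5107-5p, miR-5118, miR-5128 and miR-5131, and miR-5110 is the one member with a lower mean at 7 Gy in this scaling.

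miR-5126 had the widest range of scaled signal at 7 Gy among the tested members. Its scaled signal was 1500, 2358, 4173 and 2576 at 0 Gy against 12795, 3115.5, 18475 and 4937 at 7 Gy. Replicates 1 and 3 at 7 Gy stood far above all other arrays, while replicate 2 lay within the range of the controls. The log2 difference was 1.64 ± 0.62 (SE; 95% interval 0.19 to 3.09), with an adjusted p of 0.135 by limma and an exact permutation p of 0.0571. Without 7 Gy replicate 2 the difference was 2.08, with an adjusted p of 0.0290 by limma, and 5 members passed as higher, beside 26.9% of all tested. Among the 5 were miR-5107-5p and miR-5130, whose controls all lay at the floor, so that they could be called in that direction alone. The irradiated arrays left in that fit were the 3 with labelling out of range. Before scaling the same 2 arrays, replicates 1 and 3, read 2953 and 3990 units against 2771 to 5222 at 0 Gy, and they were among the 3 arrays with labelling out of range. Its 2 probes differed by a factor of 1.06 in brightness and gave 1.81 and 1.86 for the log2 difference.

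miR-5100 had scaled signals of 1057, 1659, 3729 and 2186 at 0 Gy against 3703, 3241, 5749 and 5864 at 7 Gy. The groups overlapped through 0 Gy replicate 3. The log2 difference was 1.21 ± 0.41 (SE; 95% interval 0.24 to 2.17), with an adjusted p of 0.117 by limma and an exact permutation p of 0.0857. With no scaling the difference was -0.055. The ratio of miR-5126 to miR-5100 within an array, which no scaling can change, was 1.42, 1.42, 1.12 and 1.18 at 0 Gy against 3.46, 0.961, 3.21 and 0.842 at 7 Gy. The irradiated arrays thus fell on both sides of the controls, with replicates 1 and 3 above and replicates 2 and 4 below.

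miR-5118, miR-5130 and miR-5131 were dim, and the floor hid most of their range. miR-5118 read 12.5 to 31.8 scaled units at 0 Gy and 33.7 to 129 at 7 Gy, with no overlap. miR-5131 read 8.93 to 22.9 at 0 Gy and 24.5 to 111 at 7 Gy, again with no overlap. miR-5130 read 17.7 to 43.8 at 0 Gy and 36.7 to 148 at 7 Gy, where replicate 2 lay among the controls. With the floor their log2 differences were 0.11, 0.04 and 0.33, with adjusted p of 0.548, 0.736 and 0.156 by limma. Before the floor the differences were 1.74, 2.03 and 1.84. Among the 14 members detected on all 8 arrays, 4 had groups that did not overlap in scaled signal before the floor, all higher at 7 Gy, beside 13.2% of the 311 such miRNAs on the array, and 0 were lower, beside 3.54%. Before scaling 0 of the 14 were higher without overlap, beside 0.0%, and 0 were lower, beside 3.54%.

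The remaining tested members showed no difference that passed the test. miR-5119 had a scaled signal of 125 ± 56.7 at 0 Gy and 230 ± 117 at 7 Gy (SD, n = 4 each), with a log2 difference of 0.68 (95% interval -0.33 to 1.69) and an adjusted p of 0.317 by limma. miR-5112 had 702 ± 352 and 995 ± 514, with a log2 difference of 0.43 (95% interval -0.86 to 1.72). miR-5113 had 190 ± 42.3 and 242 ± 76.0, with a log2 difference of 0.32 (95% interval -0.28 to 0.93). Each of these intervals reaches from below 0 to at least 0.93 log2 units. For miR-5112, miR-5113 and miR-5119 the direction turned with no scaling, to -0.83, -0.32 and -0.19.

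miR-5110 was the only tested member with a difference below 0, and it turned to 0.68 when arrays were set to the labelling spike-in. It had 157 ± 90.4 scaled units at 0 Gy and 90.3 ± 21.4 at 7 Gy (SD, n = 4 each), with a log2 difference of -0.53 (95% interval -1.28 to 0.23) and an adjusted p of 0.311 by limma. Both of its probes gave -0.47. Its ratio to miR-5113 within an array was 0.487, 0.656, 0.867 and 1.13 at 0 Gy against 0.469, 0.442, 0.500 and 0.197 at 7 Gy. Only 7 Gy replicate 3 came above the lowest control.

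miR-5132-5p was below the floor on every array and so outside the comparison. Its scaled signal was 21.9, 44.5, 33.7 and 22.9 on the control arrays, against 7.39, 7.61 and 11.7 on 7 Gy replicates 2 to 4, and it was not called detected on 7 Gy replicate 1. All irradiated values lay below all controls, in scaled signal and before scaling, where the controls read 24.6 to 98.5 and the irradiated arrays at most 19.5. With a floor of 10 it was tested and was lower at 7 Gy, with a log2 difference of -1.50 and an adjusted p of 0.0321 by limma, beside 3.7% of the 513 miRNAs tested so. Its values on 7 Gy replicates 1 to 3 were under 10 and were raised to it, which left the irradiated group almost no spread. That fitted value is therefore given as a description, for a member singled out after its values were seen. In the same fit 2 members were higher, beside 1.75%. Its 2 probes disagreed, since one gave a log2 difference of -1.91 with no overlap and the other, far dimmer, gave 0.24 with overlap, so that the fall rests on 1 probe. The opposite arm, miR-5132-3p, had a difference of 1.00 before the floor, beside a median of 1.103 over all 311 miRNAs detected on every array. Before scaling its difference was -0.26. It was dim, at 2.88 to 4.59 unscaled units for 0 Gy and 2.26 to 4.67 for 7 Gy, and its groups overlapped.

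Distinct probes of a tested member moved alike in mean difference, though for miR-5128 and miR-5131 the groups overlapped on 1 probe and not on the other. The 11 tested members had 2 or 3 probes each, and the log2 differences of the probes of a member were 0.00296 to 0.315 apart. The error that the scanner software gives for the signal of a tested member was 5.81 to 9.52% of it. Members that were not tested could depart from this likeness, as miR-5132-5p did above and as the dim miR-5135 did.

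The members carried a larger part of the array signal in irradiated mice. They made up 2.27, 4.502, 7.05 and 6.77% of the summed signal of all mouse miRNAs on 0 Gy replicates 1 to 4, against 15.02, 9.34, 17.0 and 13.9% on 7 Gy replicates 1 to 4. The means were 5.15 ± 2.23% and 13.8 ± 3.25% (SD, n = 4 each), and every irradiated array lay above every control. This share needs no scaling between arrays, but it depends on what other miRNAs do and on how bright a probe is, so it is not a share of molecules. Such a shift was not particular to the members, since the range miR-8090 to miR-8120 went from 0.807 to 2.86% at 0 Gy to 3.15 to 9.43% at 7 Gy, also with no overlap, and all other miRNAs numbered 1000 or more lay at 10.1 to 39.1% and 32.1 to 52.9%. No test was made of these shares.

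miR-5126, miR-5100, miR-5128 and miR-5112 together gave 86.8 to 94.9% of the members' signal. miR-5126 alone gave 0.884, 1.90, 2.73 and 2.44% of the array signal at 0 Gy and 9.12, 3.39, 10.69 and 4.07% at 7 Gy. Its share was above the controls on all irradiated arrays, by the least on replicate 2. miR-5100 gave 0.623 to 2.44% at 0 Gy and 2.64 to 4.84% at 7 Gy, and miR-5128 gave 0.223 to 0.641% and 1.29 to 2.31%. The shares of these members did not overlap either, whereas those of miR-5112 did, at 0.280 to 0.771% and 0.365 to 1.31%. Shares without overlap were not counted over all miRNAs, so these are not a result about the members. In scaled signal the groups of miR-5126 and of miR-5100 overlapped. For comparison, miR-709 gave 0.837 to 1.53% and 2.55 to 6.42%, and its log2 difference was 1.56, with an adjusted p of 0.0474 by limma.

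**Figure D3:**
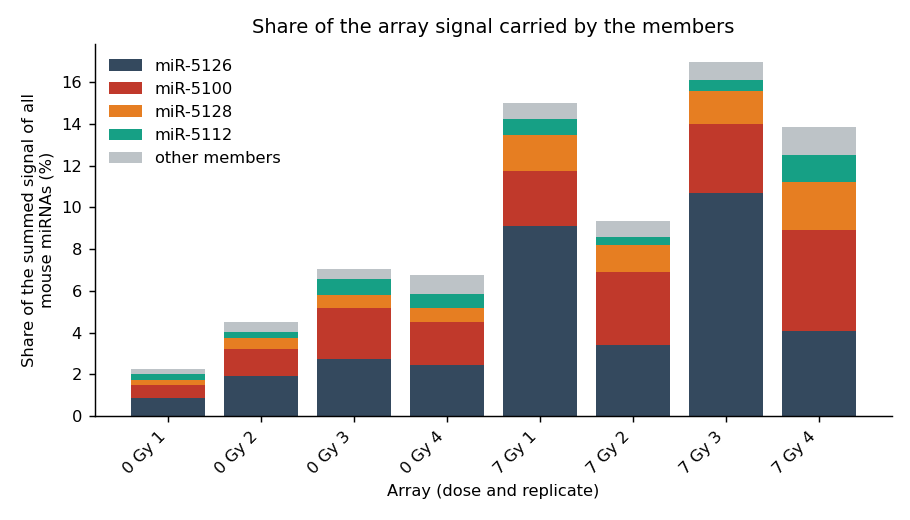
Share of the summed signal of all mouse miRNAs carried by the 38 members on each array (y axis, percent, from 0; stacked bars, the 4 members with most signal and the others). The share runs from 2.27 to 7.05% on the 0 Gy arrays and from 9.34 to 17.0% on the 7 Gy arrays, and miR-5126 is the largest piece on 7 Gy replicates 1 and 3.

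The members' summed signal itself overlapped, at 7671 to 12393 units for 0 Gy and 4866 to 22682 for 7 Gy. The total that it was divided by overlapped too, at 113386 to 435275 units for 0 Gy and 32387 to 242891 for 7 Gy. The 4 red blood cell miRNAs that the array held of the list used here, miR-451a, miR-144-3p, miR-486a-5p and miR-16-5p, carried 15.6 to 47.6% of the signal at 0 Gy and 6.04 to 19.6% at 7 Gy. miR-451a read 172768, 86473, 2595 and 5993 units at 0 Gy and 19.3, 39270, 7.11 and 14.0 at 7 Gy. All 4 were detected on every control array and on 7 Gy replicate 2, but only 2 on 7 Gy replicates 1, 3 and 4. There the list still carried 9.08, 14.9 and 6.04% of the signal. With the 4 red blood cell miRNAs left out of the total, the members' share was 4.34 to 9.33% at 0 Gy and 11.6 to 20.0% at 7 Gy. Among miRNAs numbered 1000 or more alone it was 14.7 to 19.0% and 20.8 to 24.9%. The groups did not overlap in either case, and both denominators were chosen after seeing the data.

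Markers of other cells made up little of the signal. The 4 lymphocyte miRNAs carried 0.210 to 0.575% at 0 Gy and 0.0949 to 0.335% at 7 Gy, and miR-155-5p was detected on no irradiated array. The 3 myeloid and platelet miRNAs carried 0.132 to 1.102% and 0.00579 to 0.766%, and the 3 pancreas miRNAs 0.0760 to 0.123% and 0.104 to 0.498%, with miR-217-5p detected nowhere. The 2 liver miRNAs were both detected on every control array, at 0.00515 to 0.490%, and among the irradiated arrays on replicate 2 alone, where they carried 1.13%. Their part in the members' differences was not tested.

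Compared with other miRNAs, the members stood differently by measure. With the floor their median of 0.43 lay between those of other miRNAs numbered 1000 or more and of miRNAs numbered under 1000. Before the floor, over miRNAs detected on all 8 arrays, their median lay above both. Of the neighbouring high-number range miR-8090 to miR-8120, 7 of 31 were tested and 0 passed at the adjusted threshold, with a median log2 difference of 0.41 by limma and 1 at an unadjusted p under 0.05. All other miRNAs numbered 1000 or more had a median of 0.52 over 89 tested, and those numbered under 1000 had -0.14 over 108. These medians were not tested against each other. Over miRNAs detected on all 8 arrays, before the floor, the median was 1.31 for the 14 members and 1.103 for all 311, of which 261 lay above 0 as did 13 of the 14 members. It was 1.38 for 15 of miR-8090 to miR-8120, 1.17 for 184 other miRNAs numbered 1000 or more and 0.81 for 113 numbered under 1000. Relative to that median of 1.103, miR-5131 stood at 0.93, miR-5107-5p at 0.85, miR-5128 at 0.69, miR-5126 at 0.54 and miR-5100 at 0.10, while miR-5113 stood at -0.78 and miR-5110 at -1.76.

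**Figure D4:**
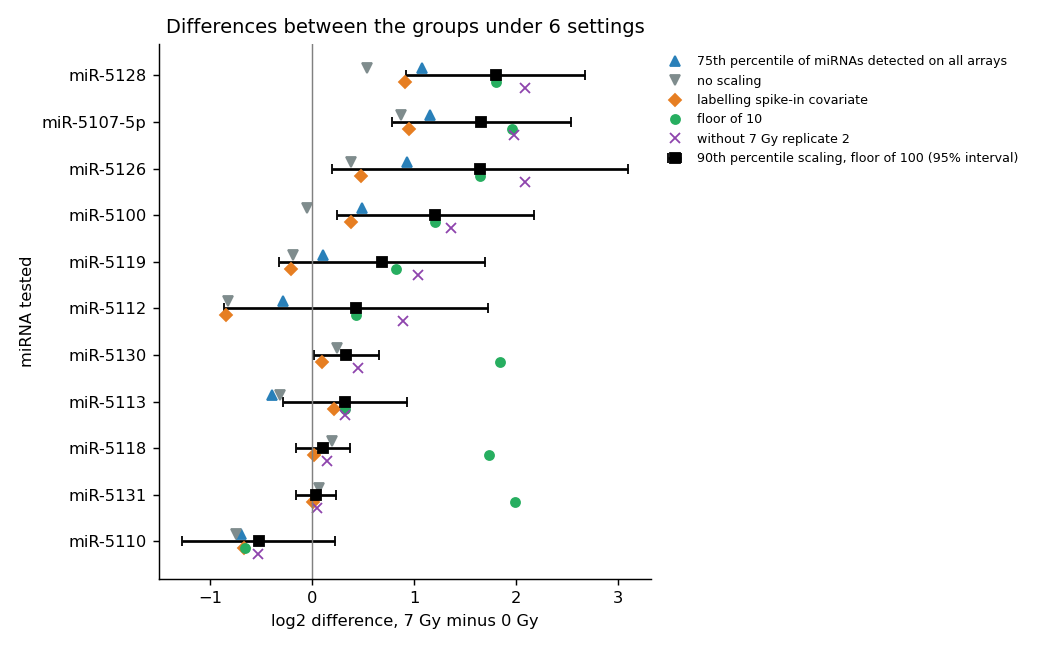
log2 difference (7 Gy minus 0 Gy) of each tested member under 6 settings (x axis, log2 units; black squares with bars, 90th percentile scaling with a floor of 100 and its 95% interval by limma; other symbols, 5 alternatives). miR-5128 moves from 1.80 to 0.53 with no scaling and to 0.91 with the labelling spike-in as a covariate, and miR-5118, miR-5130 and miR-5131 move up by more than 1 unit with a floor of 10.

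The size of the differences moved with the scaling. For miR-5128 the log2 difference was 1.80 with the 90th percentile, 1.08 with the 75th percentile of miRNAs detected on all arrays (adjusted p of 0.0017 by limma), 0.53 with none and 3.55 when arrays were set to the labelling spike-in. With that spike-in as a covariate it was 0.91, and over the 5 arrays with labelling in range it was 0.93, where the lone irradiated array is assumed to vary like the controls. Neither passed the test. Within slide row 1, which held replicates 1 and 2 of both groups, the difference was 1.82, and within row 2 it was 1.78. With the row as a block, miR-5100, miR-5107-5p and miR-5128 passed, 3 members beside 8.65% of all tested, of which miR-5107-5p could be called in that direction alone.

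Base composition varied widely among the members. miR-5126 consists of G and C alone, the one such sequence among 1608 array miRNAs with a sequence in the table. miR-5131 and miR-5130 had 87.0 and 83.3% G and C, and miR-5110 and miR-5113 had 56.0 and 52.2%. The median was 61.9% for the 9 tested members with a sequence, 56.9% for all 32 and 50% for the 11 members with a sequence that were detected on no array, against 52.2% over the 1608. Over the 9 tested members the log2 difference went with the share of G and C at Pearson's r = 0.28 and Spearman's rho = 0.33, and over the 168 other tested miRNAs at r = 0.57 and rho = 0.68. These are descriptions over miRNAs that share the same 8 arrays and the same labelling reaction. miR-5118, miR-5130 and miR-5131 enter with all controls at the floor, and miR-5110 and miR-5119 with some values at it.

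**Figure D5:**
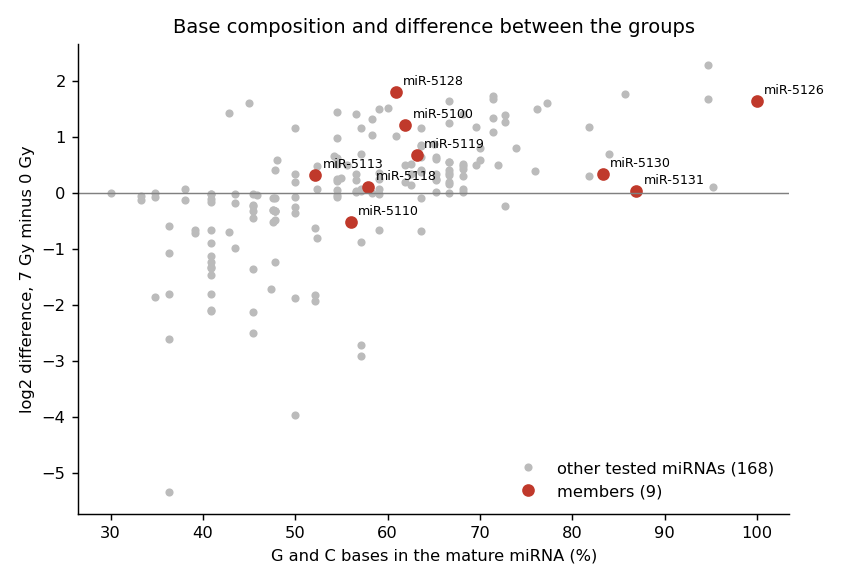
Share of G and C bases in the mature miRNA (x axis, percent) against the log2 difference between 7 Gy and 0 Gy with the floor of 100 (y axis) for the 9 tested members with a sequence (red) and 168 other tested miRNAs (grey). miR-5126 sits alone at 100% with a difference of 1.64, and most grey points below -1 lie at low G and C content.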

How the data were processed

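Serum RNA of 4 mice at 0 Gy and 4 at 7 Gy was hybridised to 1-colour Agilent mouse miRNA arrays, 1 array per serum. The deposited intensity values are the gene signals of Agilent Feature Extraction (11.5 in the submitters' notes, 11.5.1.1 in the file headers), which sums background-subtracted probe signals per miRNA. The authors deposited them with no normalization between arrays, and a miRNA not called detected has 0.1. Equal RNA mass was labelled, so values are relative to the RNA in each serum.

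Here the 90th percentile over 1881 miRNAs was made equal on all arrays, lower values were raised to 100, and differences were taken in log2. The methods name the percentile shift and a cut-off of 100, read here as a floor. miRNAs detected on at least 3 arrays and not at the floor on all 8 were compared with limma 3.58.1 in R 4.3.3 (lmFit, eBayes, no covariate), with Benjamini-Hochberg adjustment over 208. Exact permutation tests were two-sided. The number of arrays limits the precision.

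Figures were drawn with matplotlib 3.10.9. The members and the comparison lists were chosen with earlier results of these data known. All tested members are named, with a value per array for those that passed the test, did not overlap, or were listed by the study (miR-5126, miR-5128 and miR-5100). Members detected on all arrays but at the floor are named with their range and the rest without values. Other miRNAs named are miR-709, those sharing a seed or at least 12 bases in a row with a tested member, and additions said to be chosen afterwards. Alternatives were other scalings, floors, filters, background correction (normexp, offset 50), the methods' t-test, blocks, a spike-in covariate and leaving out arrays.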

Additional observations from a re-analysis of the deposited data

Results flagged for a closer look

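Of 26 groups of 4 arrays examined among the members, 1 held a value far from the others, where chance gives about 1 in 20. It was miR-5130 at 7 Gy, whose scaled log2 signal before the floor was 5.20 on replicate 2, a gap to the next array of 0.878 of the range. That array read 36.7 scaled units while the other irradiated arrays read 125, 136 and 148. It was the only irradiated array with labelling spike-ins in the accepted range, and the part of labelling in this value was not tested.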

How the results depend on the processing

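The count of members higher at 7 Gy was 1 by limma in the main setting. It was 2 with the 75th percentile, a floor of 10, detection on all 8 arrays, normexp or within slide row 2. Over all miRNAs those settings called 7 of 204, 9 of 513, 5 of 157, 6 of 633 and 18 of 208 tested as higher. The count was 3 with the slide row as a block (beside 8.65% of all tested). By the methods' t-test at an unadjusted p and 1.5-fold it was 4, beside 34 of 208. With quantile normalization it was 1, beside 2 of 230 over all miRNAs, but the member was miR-5107-5p. There miR-5128 had an adjusted p of 0.0550 by limma. The count was 0 with no scaling, either spike-in scaling, no floor, the methods' t-test after Benjamini-Hochberg, within row 1 and with the labelling covariate. Over all miRNAs those settings called 0, 0, 0, 2, 1, 0 and 0 as higher, so little or nothing passed on the whole array. In these settings 0, 3, 1, 5, 5, 2 and 2 members were higher at an unadjusted p under 0.05 (labelling before hybridization spike-in). At that threshold 1 member was lower with no floor and 1 with the labelling covariate. No share over all tested miRNAs was counted beside these unadjusted counts, so they are not a result about the members. Leaving out 1 array other than 7 Gy replicate 2 gave 0, beside 0 to 2 over all miRNAs. Without 7 Gy replicate 2 there were 5, miR-5107-5p, miR-5119, miR-5126, miR-5128 and miR-5130 (beside 26.9%). Of these, miR-5107-5p and miR-5130 could be called in that direction alone, and the irradiated arrays left all had labelling out of range. The adjusted p of miR-5128 ran from 0.0017 to 0.941 over 26 alternatives. Members lower at 7 Gy were 0 throughout, beside 0 to 14 over all miRNAs, except with a floor of 10. There 1 was lower (miR-5132-5p, beside 3.7% of all tested), with most of its irradiated values raised to the floor.

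Direction turned for miR-5100 with no scaling (-0.055), for miR-5110 with labelling spike-in scaling (0.68), and for miR-5113 with the 75th percentile (-0.39) and no scaling (-0.32). It turned for miR-5112 with the 75th percentile (-0.29), no scaling (-0.83), the covariate (-0.85) and arrays in range (-0.94), and for miR-5119 with the last 3 of these (-0.19, -0.21 and -0.40). The cause was not tested. The difference in members detected (-1) ran from -2.58 to 0.0833 with 1 array left out, above 0 without 7 Gy replicate 1, and that in share of signal (8.66 percentage points) from 7.60 to 10.1.

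The labels do not say what a replicate number marks, and the correlation of the arrays within a number was -0.34, 0.43, 0.55 and 0.42. Replicates 2, 3 and 4 at 0 Gy correlated best with their own number and replicate 1 did not, so the numbers were not taken to pair the arrays. With the replicate block 0 members passed, beside 0 of all 208 tested. An unadjusted p under 0.05 was seen in 4 members, with no share over all miRNAs counted. miR-5128 had 1.80 with an adjusted p of 0.0804 by limma.

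The median log2 difference of all tested miRNAs was 0.17, against -0.12 with the 75th percentile, -0.09 with no scaling, 0.50 with labelling spike-in scaling and 0.65 with no floor. miR-5118, miR-5130 and miR-5131 were too dim to be tested with the 75th percentile. Within row 1, over the arrays in range and without 7 Gy replicate 3, respectively 2, 4 and 1 members lacked spread for a test.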
